A study of Mus musculus with 11 samples.

Results

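The salt and water transport genes of the mouse colon were followed across 2 diets. The set comprised the genes of the Slc4, Slc8, Slc9, Slc12 and Slc26 families, the epithelial sodium channel subunits, the sodium pump subunits and the colonic proton pump Atp12a, the chloride channel Cftr, the KCNQ, KCNE, Kcnn4 and Kcnma1 potassium channel genes, and the aquaporins. Members were taken by gene symbol, leaving out Slc26a3, Aqp7 and Aqp8, and each was read from its probe set of highest mean over all mice; the families were chosen with earlier results of these data known. Of 18820 genes with a probe set of their own, 67 were members. Genes of these families without a probe set of a single gene symbol were not analysed here.

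RNA came from scrapings of the colonic mucosa of male C57BL/6J mice aged 12 weeks, 1 array per mouse. All mice ate a low-fat diet during 2 weeks of adaptation. For the next 10 days the control group (n = 5) stayed on it, and the inulin group (n = 6) ate it with 10% of its weight moved from corn starch to inulin, a plant fructan that gut bacteria ferment. According to the treatment protocol, mice of both groups were fasted overnight, given 1 g of their diet and killed 4 h later, whereas the series design mentions only the fast. Scrapings hold epithelium with some underlying tissue, and their depth and position along the colon are not given in the labels.

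The colon recovers most of the sodium, chloride and water that reaches it. Sodium enters surface cells in exchange for protons through apical exchangers such as Slc9a3, or, mainly in the distal colon and under the control of aldosterone, through the epithelial sodium channel, and the basolateral sodium pump moves it out. Crypt cells can do the reverse: the cotransporter Slc12a2 loads chloride from the blood side, Cftr lets it out into the lumen, and basolateral potassium channels, among them Kcnq1 with its partner Kcne3, keep the driving force. Water follows the salt, in part through aquaporins.

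All values are log2 array values, so a difference of 1 is a 2-fold change of signal. The 11 arrays had like distributions, with medians of 5.38 to 5.46 and lower quartiles of 3.72 to 3.79. Inulin mouse 5 stood apart on the first principal component, at 37.0 against -12.3 to 13.5 in the other mice. Markers of goblet cells, present in all scrapings, had means of 11.98 to 12.15 in control and 11.99 to 12.11 in inulin colon. Several other marker lists differed with diet or in single mice. The mean of 7 colonocyte markers was 9.90 to 10.17 in control and 10.22 to 10.63 in inulin mice, and that of 7 stem cell markers 7.60 to 7.78 and 6.76 to 7.47, the lowest in inulin 5. The colonocyte markers differed unevenly: Prap1, Dhrs9 and Tmigd1 were higher under inulin by 1.19, 0.76 and 0.67 and Krt20 by 0.30. Vil1, Cdhr2 and Cdhr5 were higher by only 0.12, 0.074 and 0.029. The mean of 5 distal Hox genes was 6.94 to 7.97 in control and 6.36 to 7.26 in inulin mice. The mean of 7 fat cell markers was at most 5.83 in control but 8.25, 7.73 and 7.12 in inulin 5, 4 and 2, and that of 7 pancreas markers was 10.75 in inulin 3. The means of the smooth muscle, fibroblast, endothelial and macrophage lists were at most 5.23, 5.50, 4.55 and 4.81 in control mice, and each was highest in inulin 5, at 5.52, 6.17, 5.51 and 5.70. The mean of 6 tuft cell markers was 6.56 to 6.89 in control and 6.07 to 6.45 in inulin mice, and that of 5 deep crypt secretory markers 10.90 to 11.26 and 9.93 to 11.20. Of all these markers only 1 tuft cell marker passed the test described next. The labels give no cage or array batch.

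None of the salt and water transport genes passed the test, a moderated comparison of the 6 inulin with the 5 control mice (limma, Benjamini-Hochberg adjusted p under 0.05 over all genes). The count was 0 of 67, where 17 of all 18820 genes passed (0.0903%; 0.0531% higher and 0.0372% lower). An unmoderated test allowing unequal variances called 0 of all 18820 genes, so it says nothing about the members. At an unadjusted p under 0.05 there were 11 members (16.4%), beside 13.5% of all genes. Of these 11, 6 were higher under inulin (6.34% of all genes) and 5 lower (7.19%). The groups did not overlap in 2 members, beside 2.18% of all genes: Slc4a9 was higher (1.01% of all genes) and Kcne3 lower (1.16%) in every inulin mouse. The median difference of the members was 0.028, and 0.0039 over all genes. As a set the members therefore lay near the background of the arrays, and the values below describe single genes. In whole scrapings, fewer cells of a type and less RNA per cell cannot be told apart.

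**Figure D1:**
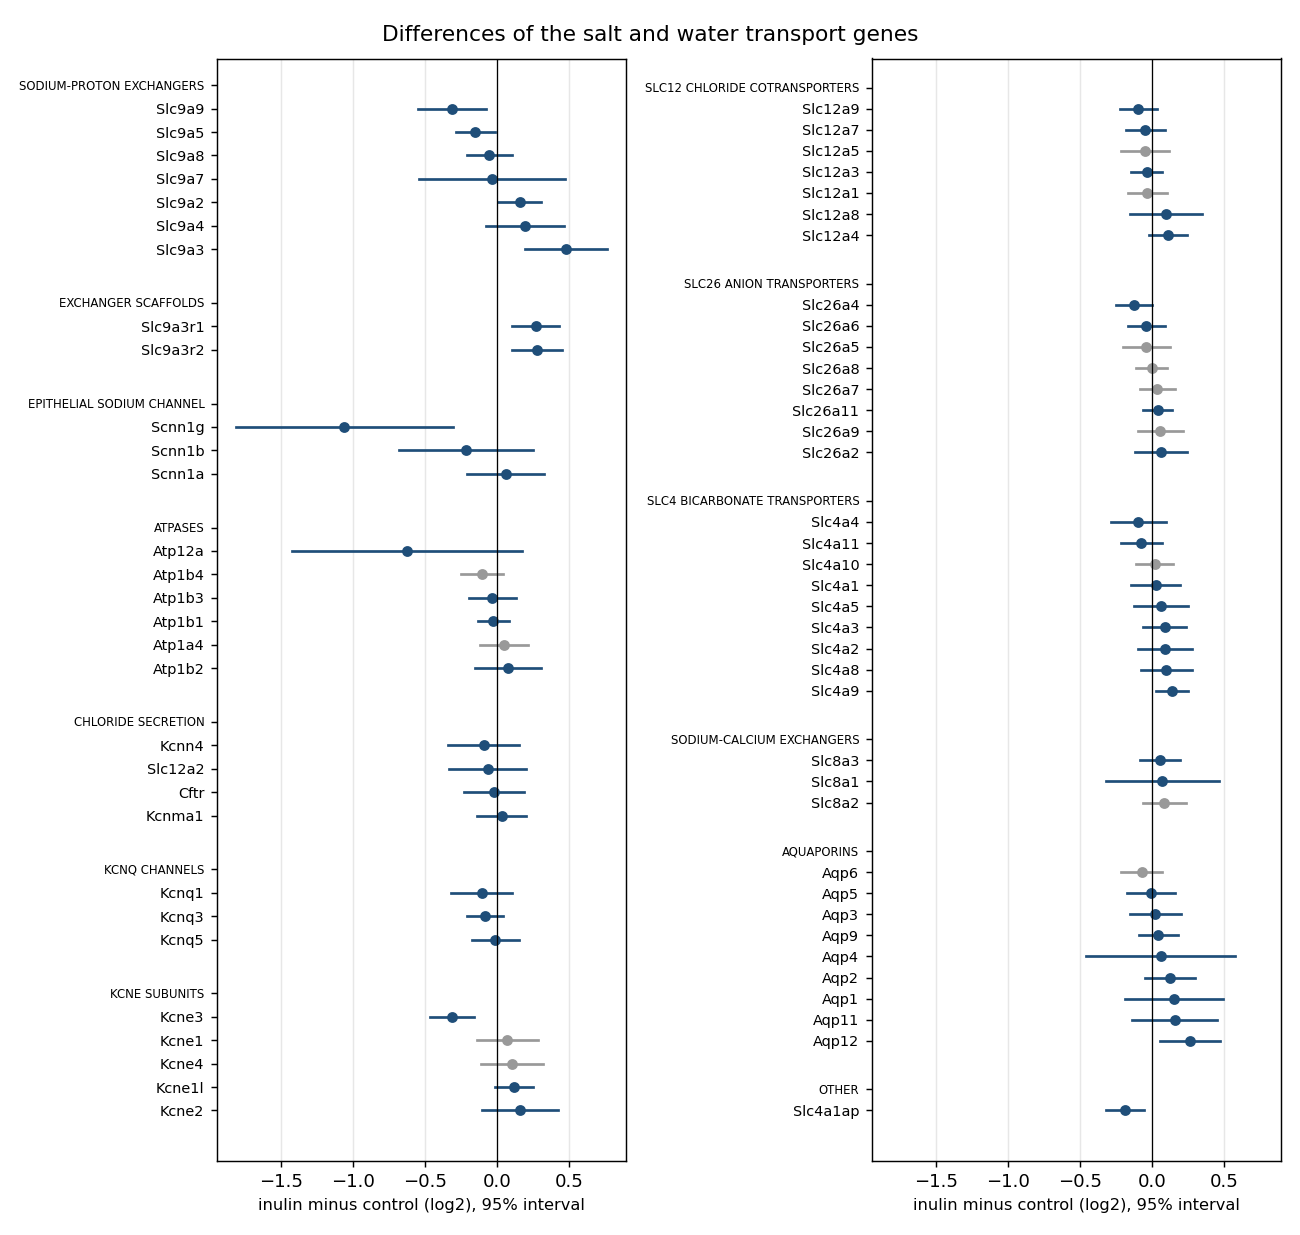
Difference between inulin and control (log2) for each of the 67 members, grouped by role, with its 95% interval from limma; grey marks members whose mean lay below the lower quartile of all array values. Most points lie within 0.2 of 0, whereas Scnn1g at -1.06, Atp12a at -0.62 and Slc9a3 at 0.48 lie farthest out.

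Among the sodium-proton exchangers, Slc9a3, the main apical exchanger (NHE3) of absorptive cells, was higher under inulin by 0.48 ± 0.13 (SE), which is 1.40-fold (95% interval 1.15 to 1.70). Control mice 1 to 5 had Slc9a3 at 11.17, 11.48, 10.89, 11.47 and 11.08, and inulin mice 1 to 6 at 11.52, 11.81, 11.79, 11.31, 11.92 and 11.87. All inulin mice but inulin 4 lay above every control, and inulin 4 lay among the controls. Its limma p was 0.0029 and its adjusted p 0.16. Slc9a2, the other apical exchanger (NHE2), differed less, at 11.14 ± 0.12 (SD, n = 5) and 11.30 ± 0.11 (SD, n = 6), and its groups overlapped (adjusted p 0.35). With the colonocyte marker mean as a covariate Slc9a3 differed by 0.34 (adjusted p 0.68) and Slc9a2 by -0.083, although that mean did not overlap between the diets, so the covariate and the diet can hardly be separated.

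Slc9a3r1 (NHERF1) and Slc9a3r2 (NHERF2) encode scaffold proteins that hold Slc9a3 at the apical membrane. Their RNA signals had higher means under inulin, and neither passed the test. The 6 measured genes of a separate list of transporter scaffolds went both ways. Shank2, Pdzd3 and Pdzk1 differed by -0.21, -0.11 and -0.10, and Ahcyl2, Ezr and Ahcyl1 by 0.11, 0.11 and 0.0090. Slc9a3r1 was at 10.86, 10.98, 10.78, 10.90 and 10.99 in control and at 11.18, 11.23, 11.19, 10.88, 11.33 and 11.19 in inulin mice. As for Slc9a3, inulin 4 was the only inulin mouse within the control range. The difference was 0.27 ± 0.075 (SE), 1.20-fold, with an adjusted p of 0.17. Slc9a3r2 was at 6.76, 6.66, 6.63, 6.76 and 6.38 in control and at 6.96, 7.03, 6.93, 7.02, 6.72 and 6.82 in inulin mice, where inulin 5 was the mouse within the control range. The difference was 0.28 ± 0.081 (SE), 1.21-fold, with an adjusted p of 0.17. The inulin mouse within the control range was thus inulin 4 for Slc9a3 and Slc9a3r1 but inulin 5 for Slc9a3r2. Such a pattern was not particular to these genes: Aqp12 and Clca4a also had 5 of 6 inulin mice above all controls. Its share over all genes was not counted.

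The remaining exchangers of the family were mostly lower or close. Slc9a9, an exchanger of endosomes, had a control mean of 5.90 ± 0.099 (SD, n = 5) and an inulin mean of 5.58 ± 0.25 (SD, n = 6), a difference of -0.31 ± 0.11 (SE) with an adjusted p of 0.24. All inulin mice but inulin 5 lay below every control, at 5.29 to 5.68, and inulin 5 was at 5.99. With arrays weighted by their agreement with the fit, Slc9a9 passed (-0.40, adjusted p 0.048). That setting called 245 of all 18820 genes, against 17 in the main fit. Slc9a5 differed by -0.15 ± 0.063 (SE) (adjusted p 0.32) and Slc9a8, of the Golgi and apical membrane, by -0.054 ± 0.073 (SE). Slc9a4 and Slc9a7 differed by 0.19 and -0.032.

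**Figure D2:**
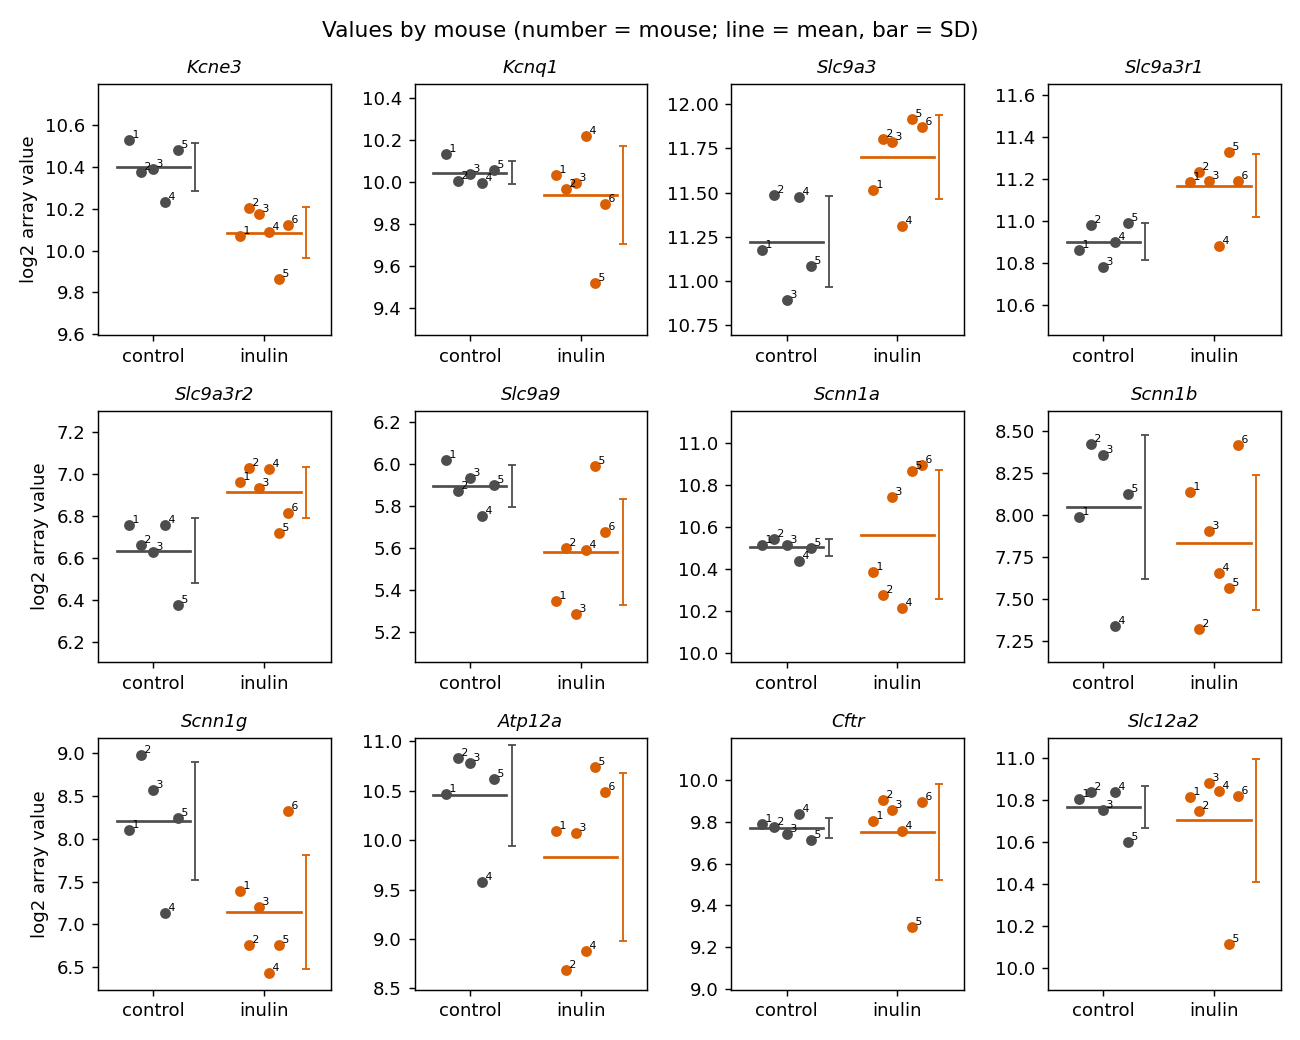
Log2 array values of 12 members in each mouse, with the mouse number beside each point, the mean as a line and the SD as a bar; the vertical axes differ between panels. Kcne3 is lower in every inulin mouse than in any control, Slc9a3 and Slc9a3r1 have inulin 4 among the controls, and Cftr, Slc12a2 and Kcnq1 have inulin 5 below all other mice.

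The epithelial sodium channel is built from α, β and γ subunits, the products of Scnn1a, Scnn1b and Scnn1g. In rodent colon aldosterone is known to raise the β and γ subunits, while α is made constitutively. Scnn1g had the widest difference of all members. It was at 8.10, 8.98, 8.57, 7.13 and 8.25 in control and at 7.39, 6.76, 7.20, 6.44, 6.76 and 8.32 in inulin mice. Control 4 lay within the range of the low inulin mice and inulin 6 within that of the other controls, so the groups overlapped. The difference was -1.06 ± 0.35 (SE), or 0.480-fold (95% interval 0.285 to 0.808). Its limma p was 0.0095 and its adjusted p 0.22. Leaving out each mouse in turn gave differences from -1.33 to -0.87. Without inulin 3, 4 and 5 together, which include the mouse lowest in Scnn1g, the difference was -0.72 (adjusted p 0.49).

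The differences of the other subunits were smaller. Scnn1b was at 7.99, 8.42, 8.35, 7.34 and 8.13 in control and at 8.14, 7.32, 7.91, 7.65, 7.57 and 8.42 in inulin mice, a difference of -0.21 ± 0.21 (SE) with an adjusted p of 0.71. Its lowest mice, inulin 2 and control 4, were low for Scnn1g as well. Scnn1a had means of 10.50 ± 0.040 (SD, n = 5, control) and 10.56 ± 0.31 (SD, n = 6, inulin), a difference of 0.060 with a fold interval from 0.866 to 1.26. The inulin mice lay on both sides of the narrow control range of 10.44 to 10.54: inulin 3, 5 and 6 above it at 10.74, 10.87 and 10.89, and inulin 1, 2 and 4 below it at 10.38, 10.27 and 10.21. The differences between subunits were not tested against each other.

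Scnn1g and Scnn1b lie on the same strand of chromosome 7 in the RefSeq annotation of GRCm38.p6, with a long noncoding RNA gene, Gm36848, annotated between them. Their upstream sequences are shown because both genes were low in control 4 and inulin 2. Each ends at the base before the annotated start of the gene, and capitals mark the GC box GGGCGG, found on either strand, which binds Sp-family factors.
Scnn1g, chr7:121734229-121734419, plus strand: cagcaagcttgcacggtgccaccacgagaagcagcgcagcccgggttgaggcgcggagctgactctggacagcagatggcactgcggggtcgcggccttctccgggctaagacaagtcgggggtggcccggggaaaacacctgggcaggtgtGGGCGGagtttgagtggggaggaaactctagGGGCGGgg
Scnn1b, chr7:121864788-121865037, plus strand: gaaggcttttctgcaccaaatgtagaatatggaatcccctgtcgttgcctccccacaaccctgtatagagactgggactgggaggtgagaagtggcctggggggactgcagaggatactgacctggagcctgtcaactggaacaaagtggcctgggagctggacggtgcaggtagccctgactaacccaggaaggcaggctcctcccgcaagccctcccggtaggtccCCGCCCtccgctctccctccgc
The GC box occurred 2 times in the 191 bases of Scnn1g and 1 time in the 250 bases of Scnn1b. It occurred at least once in 23.1% and 32.7% of all RefSeq promoter windows cut to the same lengths. Those windows were counted from the first base of each promoter sequence, so they need not end at the start of their gene. The core of the steroid receptor element (AGAACA) and a core bound by posterior homeobox factors (TTTATNG), searched on both strands, had 0 matches in either window, beside 12.8% and 7.35% of all windows of 191 bases and 16.1% and 9.81% of those of 250. The motifs did not overlap.

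Atp12a, the potassium-absorbing proton pump of the distal colon, had low values in some of the same mice. It was at 10.46, 10.83, 10.78, 9.57 and 10.62 in control and at 10.09, 8.69, 10.08, 8.88, 10.74 and 10.49 in inulin mice. Inulin 2, inulin 4 and control 4 were the lowest, whereas inulin 5, low for Scnn1g, was not. The difference was -0.62 ± 0.37 (SE), 0.649-fold with an interval from 0.373 to 1.13 and an adjusted p of 0.49. A second Atp12a probe set, with a lower mean signal, differed by -0.0053 ± 0.091 (SE), so the probe sets disagreed. Subunits of the sodium pump differed little: Atp1b1, the β subunit of most epithelia, was at 12.48 ± 0.054 (SD, n = 5) and 12.46 ± 0.063 (SD, n = 6), with a fold interval from 0.913 to 1.06, and Atp1b3 differed by -0.034 ± 0.075 (SE).

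Genes that mark position in the colon also differed between mice, and the means of the 5 measured distal Hox genes were lower under inulin. The mean of Hoxa13 and Hoxb13, the homeobox genes of the distal gut taken as a covariate, was 9.27, 9.17, 9.40, 8.79 and 9.40 in control and 8.52, 8.34, 8.99, 7.67, 9.11 and 9.38 in inulin mice. Control 4 had the lowest value of the controls, and inulin 4 and 2 the lowest of the inulin mice. Inulin 5, low for Scnn1g at 6.76, was not low here, and inulin 1, with the next lowest mean, had Scnn1b at 8.14. The order depends on the genes: the mean of all 5 distal Hox genes was 7.63, 7.62, 7.71, 6.94 and 7.97 in control and 6.45, 6.56, 6.58, 6.36, 6.56 and 7.26 in inulin mice, where inulin 1 to 5 lay close together. The part of position in these results was not tested beyond a covariate fit. With the mean of Hoxa13 and Hoxb13 as covariate the difference was -0.58 for Scnn1g (adjusted p 0.50), 0.026 for Scnn1b, 0.29 for Scnn1a and 0.031 for Atp12a. Scnn1g differed by -0.29 (adjusted p 0.79) with fat cell and pancreas markers as covariates. It differed by 0.55 (adjusted p 0.73) with the colonocyte markers, which separate the diets completely.

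**Figure D3:**
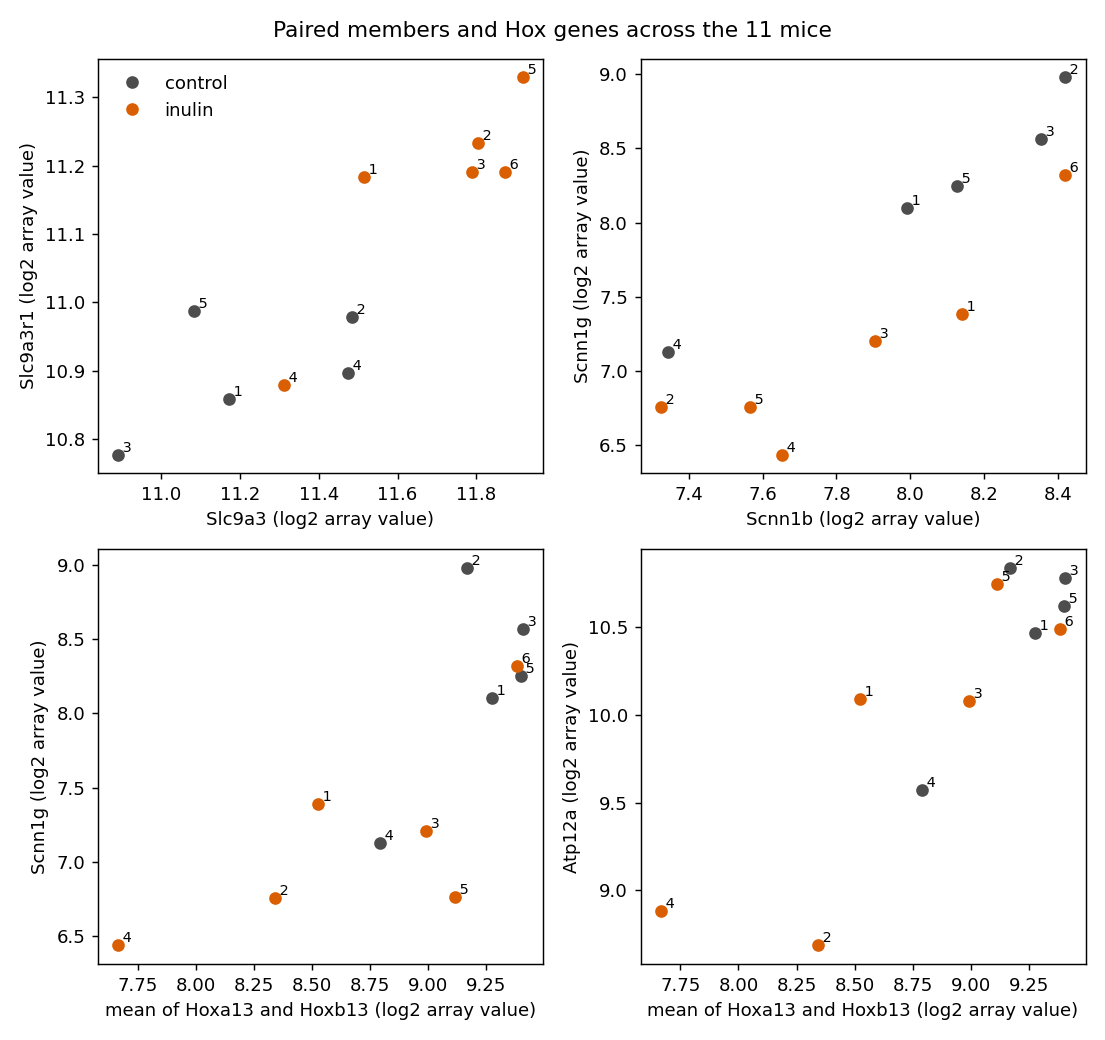
Log2 array values of 2 genes in each of the 11 mice, numbered within their diet: Slc9a3r1 against Slc9a3, Scnn1g against Scnn1b, and Scnn1g and Atp12a against the mean of Hoxa13 and Hoxb13. Inulin 4 lies with the controls in the first panel, and control 4 lies with inulin mice low in Scnn1g in the second.

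Of the genes of chloride secretion, only Kcne3 separated the diets. Kcne3 encodes the small subunit that holds the Kcnq1 channel open in the basolateral membrane of crypt cells. It was at 10.53, 10.37, 10.39, 10.23 and 10.48 in control and at 10.07, 10.20, 10.17, 10.09, 9.86 and 10.12 in inulin mice, all of them below the lowest control. The difference was -0.31 ± 0.071 (SE), 0.805-fold with an interval from 0.723 to 0.895. It had the smallest p of the members (0.00074) and an adjusted p of 0.10. With arrays weighted by their agreement with the fit, which called 245 of all 18820 genes, Kcne3 passed (-0.30, adjusted p 0.039). Leaving out each mouse gave differences from -0.36 to -0.27. With the colonocyte marker mean as covariate the difference was -0.046, and with the stem cell marker mean, which did not overlap between the diets either, -0.15.

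In its partner and the other secretion genes the groups overlapped. Kcnq1 was at 10.04 ± 0.055 (SD, n = 5) and 9.94 ± 0.23 (SD, n = 6), a difference of -0.11 ± 0.098 (SE), with inulin 5 lowest at 9.52, and without that mouse the difference was -0.023. Cftr, the chloride exit channel, was at 9.79, 9.77, 9.74, 9.84 and 9.71 in control and at 9.80, 9.90, 9.86, 9.76, 9.30 and 9.89 in inulin mice, a difference of -0.020 ± 0.097 (SE) with a fold interval from 0.853 to 1.14. Slc12a2, the basolateral chloride loader, was at 10.77 ± 0.099 (SD, n = 5) and 10.70 ± 0.29 (SD, n = 6), with inulin 5 at 10.11 and all other inulin mice at 10.75 to 10.88. Kcnn4, a calcium-activated potassium channel, had its lowest value in inulin 5 too, at 8.46 against 8.89 to 9.24 in the other mice.

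Inulin 5 was therefore the lowest mouse for Kcne3, Kcnq1, Cftr, Slc12a2 and Kcnn4, and its stem cell marker mean of 6.76 was the lowest of the 11, while its fat cell, smooth muscle, fibroblast, endothelial and macrophage marker means were the highest. The part of these in its values was not tested. Without it Cftr differed by 0.071, Slc12a2 by 0.053 and Kcne3 by -0.27 (adjusted p 0.070). This mouse held the lowest value in 13 of the 67 members (19.4%), beside 21.3% of all genes. Kcnma1, the large-conductance channel of colonic potassium secretion, differed by 0.032 ± 0.078 (SE). The remaining KCNE and KCNQ members differed by between -0.085 and 0.16, and Kcne1 and Kcne4 lay below the lower quartile of array values.

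**Figure D4:**
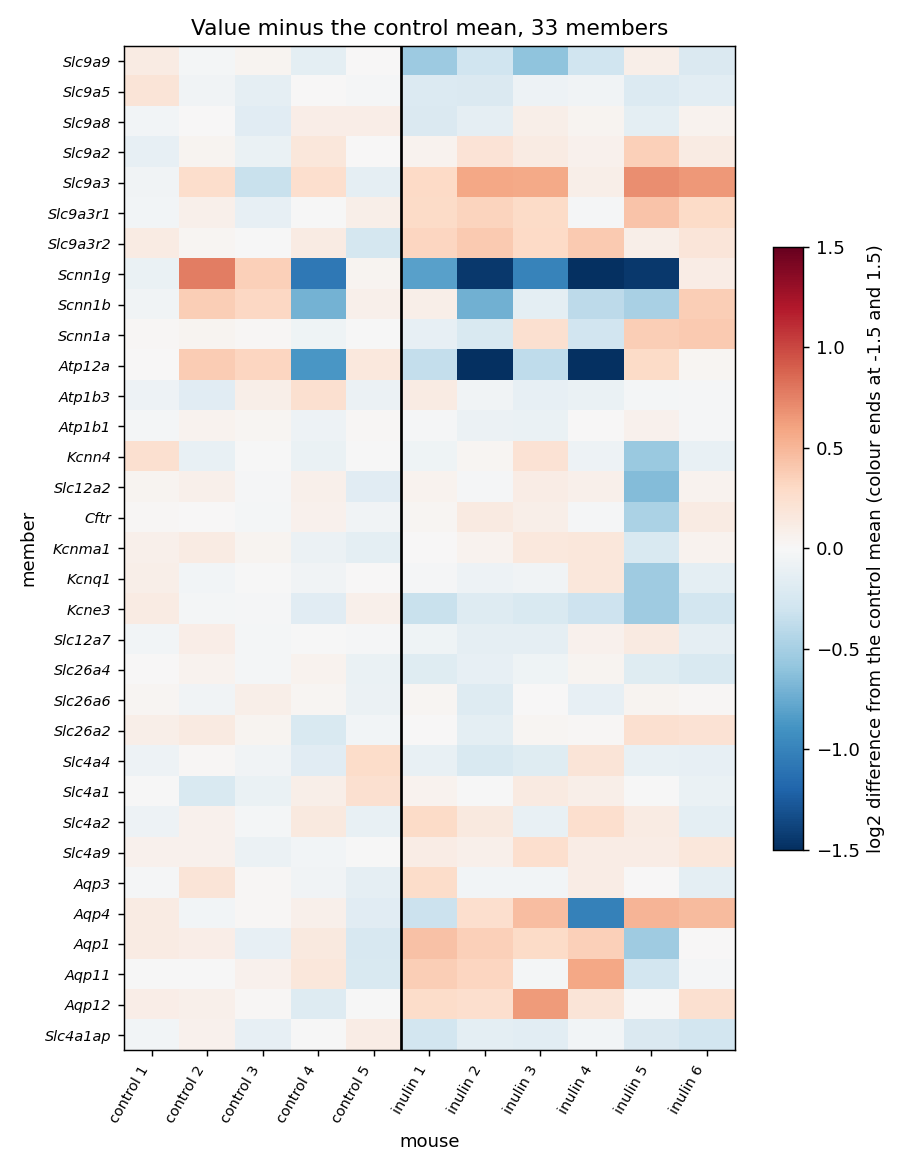
Value of 33 members in each mouse minus the mean of the 5 controls (log2), with red above and blue below the control mean and the line dividing the diets. Scnn1g, Scnn1b and Atp12a are blue in control 4 and inulin 2 and 4, the secretion genes from Kcnn4 to Kcne3 are blue in inulin 5, and Slc9a3 is red in most inulin mice.

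The anion exchangers and bicarbonate transporters among the members, which leave out Slc26a3, showed no wide difference. Slc26a2, a sulphate and anion exchanger abundant in colon, was at 11.69 ± 0.14 (SD, n = 5) and 11.76 ± 0.15 (SD, n = 6), with a fold interval from 0.922 to 1.18. Slc4a2, a basolateral anion exchanger, and Slc4a4, the basolateral sodium-bicarbonate cotransporter, differed by 0.092 ± 0.087 (SE) and -0.093 ± 0.089 (SE). Slc4a9 was at 4.21, 4.22, 4.06, 4.12 and 4.15 in control and at 4.26, 4.23, 4.40, 4.27, 4.27 and 4.32 in inulin mice, higher in all 6 but by only 0.14 ± 0.051 (SE) (adjusted p 0.26). Its signal lies close to the lower quartile of all values, 3.76, where arrays show little. Slc26a6 and Slc4a1, at 4.29 and 4.20 in control, lay near it too and differed by -0.038 and 0.028. Slc26a4, an iodide and bicarbonate exchanger at 3.89 in control, differed by -0.12 (adjusted p 0.39). Of the 8 Slc26 and 9 Slc4 members, 4 and 1 lay below the quartile.

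The Slc12 and Slc8 families and the aquaporins complete the set. The potassium-chloride cotransporter gene Slc12a7 differed by -0.046 ± 0.063 (SE), and the 7 Slc12 members other than Slc12a2 by -0.093 to 0.11. The 3 sodium-calcium exchangers differed by 0.056 to 0.087. Aqp4, a basolateral water channel, had close means in the diets (10.50 and 10.56) but a wider spread under inulin: the controls lay at 10.33 to 10.62, while inulin mice were at 10.17, 10.75, 10.96, 9.49, 11.01 and 10.97. Inulin 4 and 1 lay below every control and the other 4 above, so the difference of 0.062 (fold interval from 0.730 to 1.49) averages values on both sides of the controls, and inulin 4 was also the mouse lowest in Hoxa13 and Hoxb13. Inulin 2, the next lowest in those genes, lay above every control for Aqp4, and control 4, the lowest control, was at 10.57. Aqp1, a water channel of vessels and epithelia, differed by 0.15 ± 0.16 (SE), Aqp11, of intracellular membranes, by 0.16 ± 0.14 (SE) and Aqp3 by 0.025 ± 0.081 (SE). Aqp12, a pancreatic aquaporin, was at 4.70 ± 0.12 (SD, n = 5) and 4.97 ± 0.21 (SD, n = 6) (adjusted p 0.26) and was highest, at 5.34, in inulin 3, the mouse with the highest pancreas marker mean. Inulin 5, next for those markers at 8.17, had Aqp12 at 4.69, the lowest of the inulin mice. The part of that tissue was not tested beyond a fit with fat cell and pancreas markers together as covariates, in which Aqp12 differed by 0.36. Slc4a1ap, a nuclear protein named for binding an anion exchanger and itself no transporter, differed by -0.19 ± 0.060 (SE) (adjusted p 0.21).

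The spread between mice was wider under inulin in 42 of the 67 members (62.7%), beside 67.7% of all genes. The median SD of the members was 0.114 in control and 0.124 in inulin mice, and 0.108 in the inulin mice without inulin 5. Scnn1a, Aqp4 and Cftr, described above, had narrow control and wide inulin values. The 34 members not chosen by the naming rule differed by -0.10 to 0.19, and 13 of them lay below the lower quartile.

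Genes that regulate or work beside these transporters were read from the same fit, on 9 lists with 81 gene symbols, of which 76 were measured. None passed (limma, 0 of 76), 17 had an unadjusted p under 0.05, 11 of them higher, and the groups did not overlap in 5, all higher under inulin. These shares were 22.4% and 6.58% of the 76, beside 13.5% and 2.18% of all genes (1.01% for the groups not overlapping and inulin higher). The difference between these shares was not tested. Their median difference was 0.031. In the aldosterone and sodium channel list 0 of 12 had an unadjusted p under 0.05: the mineralocorticoid receptor gene Nr3c2 differed by -0.064 ± 0.095 (SE), Hsd11b2, which keeps glucocorticoids off that receptor, by 0.074 ± 0.092 (SE), the aldosterone-induced kinase Sgk1 by 0.14 ± 0.086 (SE) and the deubiquitinase Usp2 by 0.19 ± 0.093 (SE). Fxyd4, the colonic modulator of the sodium pump, was lowest in inulin 2 at 6.98, control 4 at 7.07 and inulin 4 at 7.37, the same 3 mice as for Atp12a, and differed by -0.44 ± 0.33 (SE). Fxyd7 and Fxyd1 differed by 0.10 and 0.42, the kinase gene Wnk4, which controls chloride cotransporters, by -0.16, and Cab39, a partner of the kinases downstream, by 0.055.

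The carbonic anhydrases, which supply bicarbonate and protons to the exchangers, held 3 of the 5 genes without overlap, among 10 measured (1.01% of all genes did not overlap and were higher); the list was not tested as a whole. Car12, a membrane-bound form, was at 9.05, 8.99, 8.75, 9.08 and 8.73 in control and at 9.73, 9.61, 9.31, 9.78, 9.57 and 9.12 in inulin mice, a 1.52-fold difference (0.60 ± 0.12 SE, adjusted p 0.069). Car13, a cytosolic form, was higher by 0.31 ± 0.063 (SE) (1.24-fold, adjusted p 0.071) and Car9, a membrane form known to respond to hypoxia, by 0.27 ± 0.059 (SE) (adjusted p 0.087). The abundant colonic forms Car1, Car2 and Car4 differed by 0.10, -0.039 and 0.038. Car3, a form abundant in fat cells, differed by 1.77 ± 0.58 (SE) with its highest values in inulin 5, 4 and 2, which also led the fat cell marker mean.

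Among other chloride channel genes Clca4b, of the calcium-activated chloride channel regulators of surface epithelium, was at 8.02, 8.16, 7.65, 8.25 and 8.46 in control and at 9.59, 9.23, 9.41, 8.73, 10.45 and 9.33 in inulin mice. Every inulin mouse was above every control, a 2.55-fold difference (1.35 ± 0.24 SE, adjusted p 0.055). Its relative Clca4a was higher by 0.49 ± 0.14 (SE) (adjusted p 0.18). Clca1, also on that list and among the goblet cell markers, went the other way, by -0.15 ± 0.067 (SE) (adjusted p 0.34). Guca2a, encoding guanylin, the peptide that turns on chloride secretion and holds back Slc9a3, was at 12.04, 12.05, 12.05, 12.18 and 12.04 in control and at 12.19, 12.26, 12.22, 12.35, 12.37 and 12.24 in inulin mice, higher in all 6 by 0.20 ± 0.052 (SE) (adjusted p 0.15), and its receptor gene Gucy2c differed by 0.083. Of the receptors that set secretion, Chrm3, the muscarinic receptor of crypt cells, was lower by 0.60 (-0.60 ± 0.16 SE, adjusted p 0.15), with inulin 5, at 6.94, the one inulin mouse well inside the control range of 6.67 to 7.12. The calcium-sensing receptor gene Casr was higher by 0.29 ± 0.089 (SE) (adjusted p 0.19), from 3.60, below the lower quartile of array values. The scaffold genes Shank2 and Pdzd3 differed by -0.21 and -0.11, and the potassium channel genes Kcnj16, below the lower quartile, and Kcnk1 by -0.17 and 0.10. The count of 0 depended on single mice: without inulin 5 Car13, Clca4b and Chrm3 passed, without inulin 4 Clca4b and without inulin 6 Car12.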

How the data were processed

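The deposited values are log2 signals of 11 arrays, and the submitters' processing notes name RMA, the robust multi-array average. RMA makes arrays alike, so a shift shared by most genes would not show. The sources used here do not give its version, the probe set definition or the build. Groups came from the sample labels, 5 control and 6 inulin mice.

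Of 35556 probe sets, 21218 had 1 gene symbol in the platform annotation, and each of 18820 genes was represented by its probe set of highest mean. Inulin was compared with control in limma 3.58.1 (R 4.3.3; lmFit and eBayes, no covariate), adjusted over all genes by Benjamini-Hochberg at 0.05. Intervals are 95%. Simulated data for this comparison used the real spreads of 18820 genes. There, 72% of 50 genes changed by 0.5 (log2) and 96% of 50 changed by 1 were recovered, beside 13 false calls. In the real data 251 of the 18820 genes differed by more than 0.5 in either direction, but only 17 of all genes passed. Among the members 2 differed by more than 0.5 and 0 passed. The simulated shares are therefore not a measure of how many real differences of these sizes would pass. The 11 arrays limit the precision.

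The members and gene lists were chosen with earlier results of these data known. Genes are named if past the threshold, among the 12 members of smallest p, or well-known colonic transporters. In each pathway list those past the threshold are named, or otherwise the 2 of smallest p. Slc9a4, Slc9a7, Nr3c2, Hsd11b2, Kcne1, Kcne4, Fxyd4, Car1 to Car4 and Car9 were named after their values were seen. So were Clca1, Pdzk1, Ezr, Ahcyl1 and Ahcyl2. Promoter sequences are from RefSeq (GRCm38.p6), whose table held 67 of 67 members by Entrez number and symbol. Replicate numbers do not pair the mice: deviations of same-numbered mice correlated by -0.10 to 0.22.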

Additional observations from a re-analysis of the deposited data

Results flagged for a closer look

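Within a diet, a single mouse lay far from the others in 5 of the 66 groups of values examined for the 33 named members, where chance flags about 1 in 20. Cftr in inulin 5 was at 9.30, against 9.76 to 9.90 in the other inulin mice. Slc12a2 in inulin 5 was at 10.11, against 10.75 to 10.88. Slc9a3r1 in inulin 4 was at 10.88, against 11.18 to 11.33. Slc4a4 in inulin 4 was at 10.53, against 10.10 to 10.23. Slc12a7 in control 2 was at 9.55, against 9.40 to 9.45.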

How the results depend on the processing

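Leaving out each mouse in turn left 0 members past the threshold in all 11 fits, with 7 to 98 of all genes, 0 to 3 pathway genes and a median member difference of 0.0061 to 0.036. Array weights gave 245 genes, 2 members (Kcne3 and Slc9a9) and 5 pathway genes. The replicate number as a block gave 95 genes, 1 member (Scnn1g, -1.30, adjusted p 0.048), 2 pathway genes and a median of 0.0061, although the numbers do not pair the mice. Number 6 exists only among inulin mice, so the block also removes inulin 6: without that mouse and with no block Scnn1g differed by the same -1.30 (adjusted p 0.078). With stem cell markers as covariate, chosen after seeing the data, 176 genes, 1 member (Slc9a9) and 3 pathway genes passed, and with colonocyte markers, likewise, 8 genes. A prior that follows intensity gave 42 genes and 1 pathway gene, centring each array on its median 62, 2 and a median of 0.053, leaving out inulin 3, 4 and 5 together 33 and 1, fat cell and pancreas covariates 27 and 1, and a threshold of 0.1 130 and 4. The Hox covariate gave 1 pathway gene and a median of -0.0052, and the unmoderated test 0 genes. The members past the threshold stayed at 0 in these and with a robust prior, quantile normalisation, probe sets averaged per gene and low genes left out. Of 858 differences of named members over all settings, 57 had the other sign than reported, 12 of them with a mouse left out. The other priors, the unmoderated test, the threshold of 0.1 and leaving out low genes cannot change a difference. Their part of the 858 therefore says nothing about sign. The cause of these changes was not tested. Signals near the lower quartile limit what the 13 members below it can show.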
